A study of Mus musculus with 3 samples.

Results

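The genes described here are 9 receptors through which leukocytes sense chemokines and other chemoattractants: Ccr1, Ccr2, Ccr7, Ccrl2, Cx3cr1, Cxcr4, Fpr1, Fpr2 and Ackr3. They were chosen by gene symbol in the GENCODE M21 annotation, and all 9 were found among the 55536 genes of the tables. The study isolated the cytosol of macrophages grown from bone marrow of C57BL/6J mice, removed ribosomal RNA and sequenced the remaining total RNA. All cells had been stimulated with 100 ng/ml lipid A, the part of bacterial lipopolysaccharide that engages the receptor TLR4, for 120 min. There are 3 libraries of this 1 group, biological replicates 1, 2 and 3, without untreated cells, so no induction or repression by lipid A can be measured. The labels give the 3 libraries 1 donor identifier and no age or sex, and do not say whether separate animals were used, so the spread between libraries may be technical.

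Replicates 1, 2 and 3 were sequenced to 31152786, 114031592 and 59693298 expected counts per gene table. Every value below is a level in the cytosolic RNA of these stimulated cells. TPM, the unit of the levels, is a length-scaled share of all RNA in a library, and a gene is called detected where no library fell under 1 TPM. All 8 defining macrophage genes were detected and had a median level of 182.7 TPM. Of 8 T and NK cell genes only Cd4 was detected, at 18.2, 18.8 and 17.5 TPM. Cd3d had no counts, and none of 4 B cell genes was detected.

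Chemokine receptors are G protein-coupled receptors that signal through inhibitory G proteins and steer cells along gradients of chemokines. Formyl peptide receptors belong to the same superfamily and sense bacterial and mitochondrial peptides and host ligands such as annexin A1. Atypical receptors bind chemokines or other attractants without classical G protein signalling and instead present or remove the ligand. In macrophages, inflammatory CC receptors guide entry into tissue, while CCR7 and CXCR4 are best known for traffic to lymph nodes and retention in marrow.

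The 3 most abundant members were Ccrl2, Ccr1 and Cxcr4, and the sequences before their transcription starts are shown because the transcript tables distinguish the starts of Ccrl2. They come from RefSeq promoter windows on GRCm38.p6, which held 8 of the 9 members and no entry for Ccr7. Ccrl2 has 3 windows. All 4 stretches lie on the minus strand and are written 5′ to 3′. Capitals mark matches on either strand to the kappaB consensus, the CCAAT box (CCAAT, or ATTGG on the other strand) or the TATA box (TATAAA). The stretches are chr9:111057520-111057768 before the distal start of Ccrl2, chr9:111057271-111057380 before its proximal start, chr9:123968693-123968942 before Ccr1 and chr1:128592300-128592549 before Cxcr4.
Ccrl2 distal: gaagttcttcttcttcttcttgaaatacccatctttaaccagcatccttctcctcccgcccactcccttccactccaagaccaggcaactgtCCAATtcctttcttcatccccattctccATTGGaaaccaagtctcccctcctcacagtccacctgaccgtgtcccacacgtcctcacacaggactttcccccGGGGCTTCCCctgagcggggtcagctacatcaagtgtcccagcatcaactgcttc
Ccrl2 proximal: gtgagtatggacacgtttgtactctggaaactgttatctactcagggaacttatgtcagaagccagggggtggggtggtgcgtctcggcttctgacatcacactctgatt
Ccr1: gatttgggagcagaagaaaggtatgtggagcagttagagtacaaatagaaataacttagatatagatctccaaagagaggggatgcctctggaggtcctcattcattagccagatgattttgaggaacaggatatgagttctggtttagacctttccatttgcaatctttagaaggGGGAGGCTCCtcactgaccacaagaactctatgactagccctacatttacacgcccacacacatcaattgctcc
Cxcr4: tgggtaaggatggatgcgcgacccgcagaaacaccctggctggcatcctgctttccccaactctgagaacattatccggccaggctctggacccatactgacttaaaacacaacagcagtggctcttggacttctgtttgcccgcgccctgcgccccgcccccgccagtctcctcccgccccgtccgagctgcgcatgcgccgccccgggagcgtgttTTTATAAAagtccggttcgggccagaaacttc

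The distal Ccrl2 stretch held 1 match to the kappaB consensus, the binding sequence of NF-kB, and a pair of CCAAT boxes in opposite orientations. The proximal stretch, which is intronic to the transcript from the distal start, held no match to any motif searched. The Ccr1 stretch held 1 kappaB match, and the Cxcr4 stretch held 2 overlapping TATAAA matches, 1 on each strand. Among 32851 RefSeq windows cut to the 250 bases before the start, 7.25% held the kappaB consensus, 33.8% CCAAT and 12.4% TATAAA. The AP-1 sequence TGANTCA, present in 6.75% of windows, had no match in the windows of the 8 members, and neither had the IRF motif, present in 2.98%. Both strands were searched for each motif. Ackr3, Ccr2, Cx3cr1, Cxcr4, Fpr1 and Fpr2 had no kappaB match in these windows. CCAAT also matched in the windows of Ackr3, Cx3cr1, Fpr1 and Fpr2, and TATAAA in those of Ackr3, Fpr1 and Fpr2. A match describes letters only and is no evidence of binding.

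The 9 receptors covered a wide range of levels, from Ccrl2 at 179 TPM to Ackr3, which is listed at 0. Of the 9, 4 were detected: Ccrl2, Ccr1, Cxcr4 and Fpr2. The same held for 15.7% of all 55536 genes and for 37.6% of the 22015 nuclear-encoded protein-coding genes. Only Ccrl2 and Ccr1 reached 10 TPM in every library, as did 5.53% of all genes. Nuclear-encoded protein-coding genes held only 23.5%, 21.1% and 22.0% of TPM in replicates 1 to 3, and with TPM rescaled to these genes 7 members passed the same threshold. Ccrl2 alone made up 80.8% of the summed level of the 9. In bulk RNA, fewer cells expressing a receptor and less cytosolic RNA per cell cannot be told apart, and RNA outside the cytosol was not measured.

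**Figure D1:**
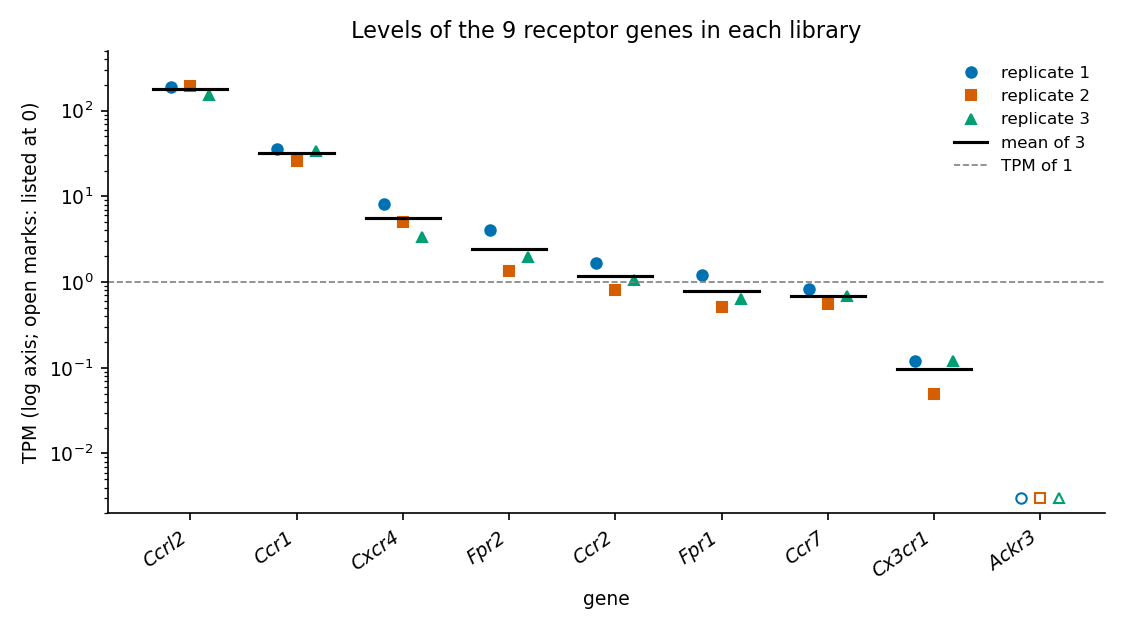
TPM on a log axis for the 9 receptor genes in each of the 3 libraries, with the mean as a black line and a dashed line at TPM of 1. Open marks stand for values listed at 0, as for Ackr3. Ccrl2 and Ccr1 lie above 10 TPM in every library, while Ccr7 and Cx3cr1 lie below 1 in every library.

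Ccrl2, an atypical receptor that binds chemerin without internalising it and presents it to cells bearing CMKLR1, was the most abundant member. Its level was 190.85, 194.04 and 152.09 TPM in replicates 1, 2 and 3, on 15794, 66341 and 25643 counts. Replicate 3 was the lowest, and the other libraries were close to each other. The mean was 179 ± 23.4 TPM (SD, n = 3), above 99.2% of nuclear-encoded protein-coding genes. Ccrl2 lies on the minus strand of chromosome 9 of mm10 at 111054486 to 111057519, apart from the main receptor cluster of that chromosome.

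Chemerin itself, encoded by Rarres2, had 0, 0 and 2.98 counts. The signalling chemerin receptor Cmklr1 was at 8.16, 5.38 and 6.42 TPM in replicates 1 to 3. Ccrl2 exceeded it 23.4, 36.1 and 23.7 fold within these libraries. Gpr1, which encodes another chemerin receptor, had no counts.

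Most Ccrl2 RNA was assigned to the transcript from the distal start. GENCODE annotates 3 Ccrl2 transcripts, and Ccrl2-203, which starts 249 bases before Ccrl2-201, took 72.2%, 71.1% and 73.5% of the gene's TPM in replicates 1 to 3. Ccrl2-201 took 10.5%, 11.3% and 10.1%. Both encode the same 1080 coding bases and differ in their noncoding parts. Ccrl2-202 is an incomplete model of 569 bases that ends inside the coding sequence, and it took 17.1% ± 0.644 (SD, n = 3). The shares of the 3 transcripts did not overlap between transcripts in any library. In the separate kallisto-layout tables the distal transcript was also the highest, at 60.7% ± 2.66, with 9.26% ± 0.0530 for Ccrl2-201 and 30.0% ± 2.61 for Ccrl2-202 (SD, n = 3 each). In replicate 1 this short model had 623 of the gene's 15794 counts, on an effective length of 335 bases.

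**Figure D2:**
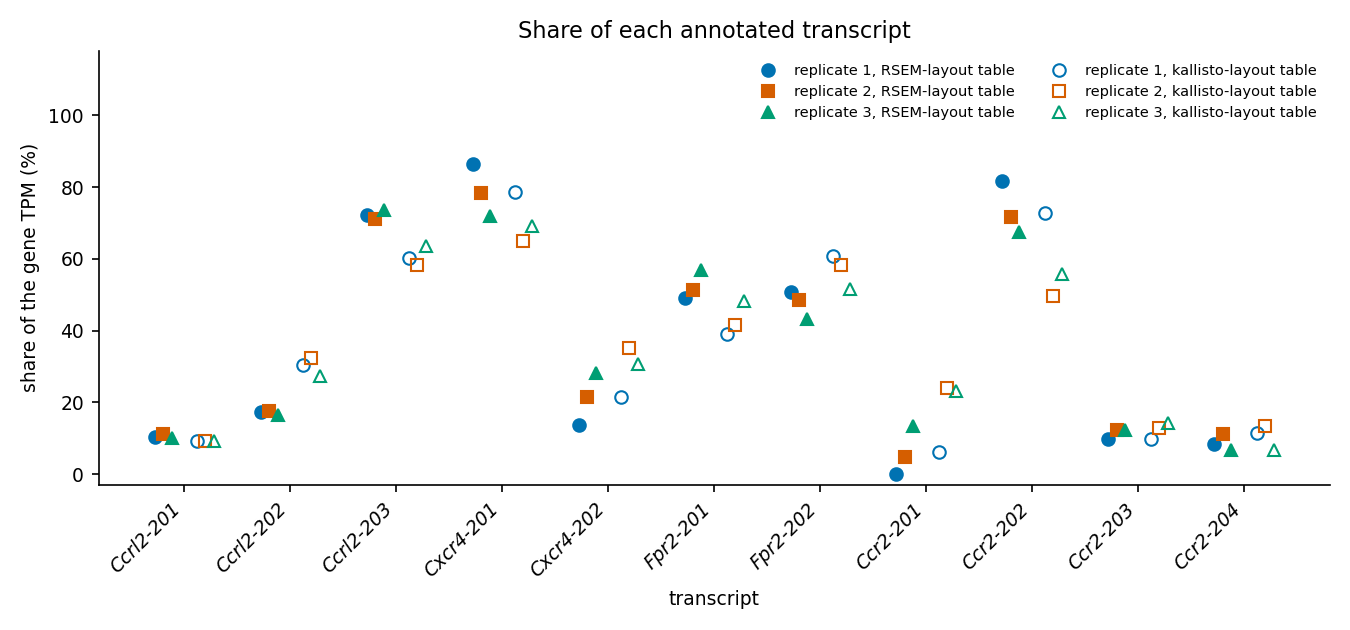
Share of a gene's TPM in each annotated transcript, in percent, for the 4 members with more than 1 expressed transcript. Filled marks are the RSEM-layout tables and open marks the kallisto-layout tables, with 1 mark per library. Ccrl2-203 leads at 71.1% to 73.5% in the RSEM-layout tables, and the shares of the 2 Fpr2 transcripts lie close together.

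Ackr3, the atypical receptor that scavenges CXCL12, was at or near no signal. The gene lies on chromosome 1 at 90203980 to 90216751. It had 0, 1 and 0 counts in replicates 1, 2 and 3 and is listed at 0 TPM in each. A count of 0 allows up to 3 counts, which for this gene correspond to 0.0355 TPM in replicate 1 and 0.0175 TPM in replicate 3, for counting error only. Unlike Ccrl2, the other atypical receptors with Ackr symbols were similar to Ackr3. Over the 3 libraries there was 1 count in all for Ackr1, 1 for Ackr2 and 2 for Ackr4.

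Ccr1, the receptor for CCL3, CCL5, CCL6, CCL7 and CCL9, was the most abundant signalling chemokine receptor. It was at 35.80, 25.60 and 33.64 TPM in replicates 1, 2 and 3, a mean of 31.7 ± 5.38 TPM (SD, n = 3). Replicate 2 was the lowest. Its single annotated transcript, Ccr1-201, spans 123962124 to 123968692 on chromosome 9 in 2 exons and carried 5243, 15393 and 9951 counts. Of its ligands, Ccl3 was at 856 ± 218 TPM, Ccl5 at 593 ± 24.3, Ccl7 at 578 ± 57.1, Ccl9 at 411 ± 63.7 and Ccl6 at 115.5 ± 22.5 (SD, n = 3 each). The level of Ccl3 was 30.5, 25.8 and 24.3 times that of Ccr1 within the libraries.

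Ccr2, the receptor for CCL2, CCL7 and CCL12 that marks classical monocytes, was far lower than Ccr1. It was at 1.66, 0.81 and 1.05 TPM in replicates 1, 2 and 3, a mean of 1.17 ± 0.438 TPM (SD, n = 3). Replicate 2 lay below the detection level and the others above it. Ccr1 exceeded Ccr2 21.6, 31.6 and 32.0 fold within the libraries. The ligands of Ccr2 were abundant, with Ccl2 at 519 ± 39.8 TPM and Ccl12 at 76.8 ± 16.3 TPM (SD, n = 3 each), and Ccl2 was 478 ± 143 times as high as its receptor (SD, n = 3).

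The expected counts of Ccr2 were not whole, at 317.17, 638.15 and 405.38 in replicates 1, 2 and 3, so part of its reads was assigned by the authors' model and its level is uncertain to that extent. Of the 4 annotated Ccr2 transcripts, all with the same 1119 coding bases, the single-exon model Ccr2-202 took 73.7% ± 7.33 of the TPM (SD, n = 3). It begins at 124105626 on chromosome 9, downstream of the other starts. The kallisto-layout tables gave it 59.4% ± 12.0 (SD, n = 3).

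Ccr1 and Ccr2 lie in a receptor gene cluster of chromosome 9, of which 7 genes between 123678439 and 124113557 are described here. Levels along it were uneven. Ccr1 was the highest, and Ccr3, best known from eosinophils, was at 3.33 ± 0.795 TPM (SD, n = 3). Of the 7 genes these 2 were detected. Ccr1l1, the closest neighbour of Ccr1 and a gene like it in sequence, was at 0.10, 0.09 and 0.08 TPM. Xcr1, Ccr9 and Cxcr6 were at 0.407 ± 0.0208, 0.193 ± 0.0737 and 0.140 ± 0.0721 TPM (SD, n = 3 each).

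**Figure D3:**
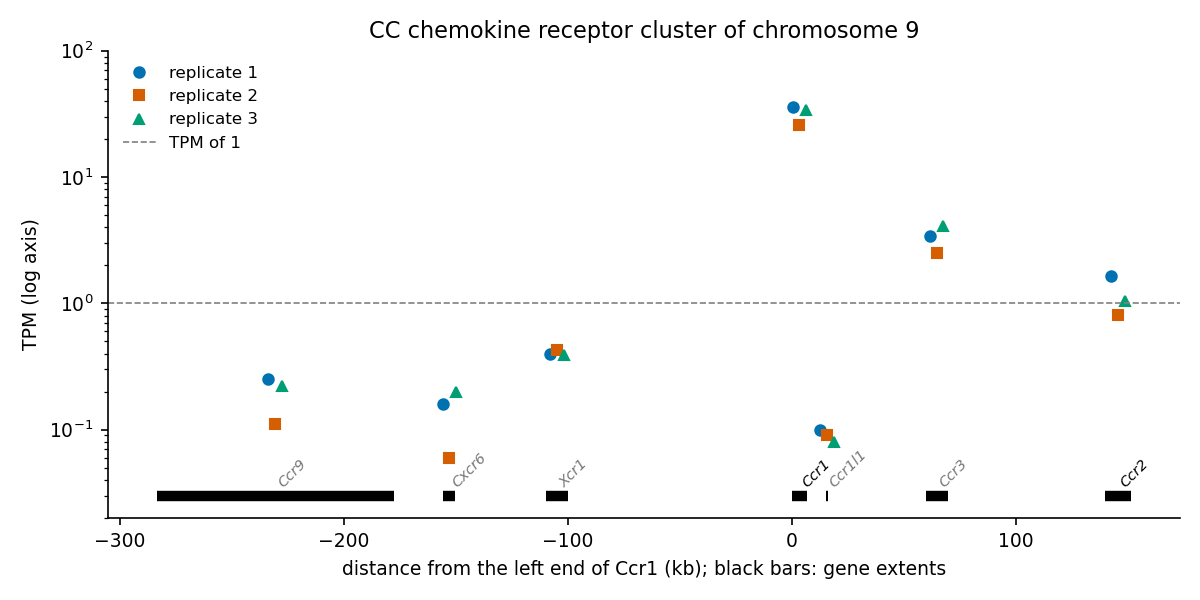
TPM on a log axis for 7 receptor genes of the chromosome 9 cluster, placed by distance in kb from the left end of Ccr1, with gene extents as black bars and 1 mark per library. Ccr1 stands at 25.60 to 35.80 TPM, its neighbour Ccr1l1 at 0.08 to 0.10 TPM and Ccr2 at 0.81 to 1.66 TPM.

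Cx3cr1, the receptor for fractalkine that marks resident phagocytes and patrolling monocytes, was at 0.12, 0.05 and 0.12 TPM on 24, 38 and 47 counts. Replicate 2 was the lowest. The gene is annotated on chromosome 9 at 119901616 to 120069879, and all counts were assigned to Cx3cr1-201. The gene's annotated extent overlaps 9 other genes through its transcripts Cx3cr1-202 and Cx3cr1-203, which had no counts. Its ligand gene Cx3cl1 was at 0.593 ± 0.0907 TPM (SD, n = 3), also below detection.

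Cxcr4, the receptor for CXCL12, was the third most abundant member and lies on chromosome 1 at 128588199 to 128592293. It was at 8.18, 5.06 and 3.38 TPM in replicates 1, 2 and 3, a mean of 5.54 ± 2.44 TPM (SD, n = 3). Replicate 3 was the lowest, as for Ccrl2, and the highest library was 2.42 times the lowest. The full-length transcript Cxcr4-201 took 86.3%, 78.5% and 71.9% of the TPM, and the incomplete model Cxcr4-202, which starts 3 bases away, took the rest. The ligand gene Cxcl12 had 0, 7 and 6 counts. MIF, another ligand of CXCR4, was encoded by an RNA at 66.9 ± 0.935 TPM (SD, n = 3), on counts that were not whole and so are uncertain. Cxcl11, whose intact product binds ACKR3 and CXCR3, is classed by GENCODE as a polymorphic pseudogene. Its RNA was at 4.28 ± 0.252 TPM (SD, n = 3), and whether these cells make an intact product was not measured.

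Ccr7, which guides mature dendritic cells and lymphocytes to lymph nodes, was at 0.83, 0.56 and 0.68 TPM on 82, 227 and 135 counts. The gene lies on chromosome 11 at 99144196 to 99155077. All 3 libraries were below the detection level. The mean was 0.690 ± 0.135 TPM (SD, n = 3). Its ligand genes Ccl19 and Ccl21a had no counts. Of the 9 dendritic cell genes only Ccl22 and Fscn1 were detected, and Flt3 and Zbtb46 were at most at 0.14 and 0.54 TPM. The summed level of these genes was 12.1, 9.30 and 13.4 TPM in replicates 1 to 3, and their part in the Ccr7 level was not tested.

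Fpr2, the formyl peptide receptor that also binds annexin A1 and serum amyloid A, was the higher of the 2 members of its family, which are neighbours on chromosome 17, Fpr1 at 17876471 to 17883940 and Fpr2 at 17887824 to 17893952. It was at 4.02, 1.36 and 1.98 TPM in replicates 1, 2 and 3, a mean of 2.45 ± 1.39 TPM (SD, n = 3). Replicate 1 was highest by 2.96 fold over replicate 2. Fpr1, which binds formylated bacterial peptides, was at 1.20, 0.51 and 0.64 TPM, a mean of 0.783 ± 0.367 TPM (SD, n = 3), with the libraries in the same order. The ratio of Fpr2 to Fpr1 was steadier than either level, at 3.35, 2.67 and 3.09.

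Reads of Fpr2 were divided between 2 annotated transcripts. Fpr2-201, which holds the full coding sequence of 1053 bases, took 52.5% ± 3.92 of the TPM, and Fpr2-202, with 144 coding bases, took 47.5% ± 3.92 (SD, n = 3 each). Fpr2-201 was the higher in replicates 2 and 3 and the lower in replicate 1. In the kallisto-layout tables Fpr2-202 was the higher in every library, at 57.0% ± 4.74 (SD, n = 3), so the leading transcript is uncertain. The overlapping gene Fpr3 and the genes Fpr-rs3, Fpr-rs4, Fpr-rs6 and Fpr-rs7 had no counts. The ligand genes Anxa1 and Saa3 were at 179 ± 12.5 and 40.3 ± 8.87 TPM (SD, n = 3 each), while Camp, whose peptide product is another ligand of this receptor, was at 0.180 ± 0.105 TPM (SD, n = 3).

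Ordered by level, Ccrl2, Ccr1 and Cxcr4 did not overlap in their library values. Below them, Cxcr4 and Fpr2, Fpr2 and Ccr2, Ccr2 and Fpr1, and Fpr1 and Ccr7 overlapped as neighbours. The first 3 of these pairs kept their order within all 3 libraries, whereas Fpr1 exceeded Ccr7 in 1 of 3. Ccr7 lay above Cx3cr1 in every library, by 7.14 fold in the means.

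Among 40 chemokine and chemoattractant receptor genes, the members and 31 others, Ccrl2 had the highest mean level, and 10 were detected. Besides the 4 members these were 6 of the 31. The complement receptors C5ar1 at 146 ± 8.68 TPM and C3ar1 at 129 ± 18.9 TPM and the platelet-activating factor receptor Ptafr at 117 ± 10.7 TPM stood next to Ccrl2 (SD, n = 3 each). The values of Ccrl2, from 152.09 to 194.04 TPM, overlapped those of C5ar1, which ran from 141.05 to 156.29 TPM, and lay above every value of C3ar1 and Ptafr. In the kallisto-layout tables Ccrl2 was at 89.8, 93.3 and 47.5 TPM in replicates 1 to 3. Within each library it lay above C3ar1, at 61.7, 49.5 and 34.0 TPM, and Ptafr, at 52.0, 45.9 and 30.9 TPM. In replicate 3 it lay below C5ar1, at 49.9 TPM. Its replicate 3 value also lay below the replicate 1 values of C3ar1 and Ptafr. Other genes were lower in replicate 3 there as well, such as Gnai2 at 49.0, 49.1 and 34.9 TPM in replicates 1 to 3. Cmklr1 was at 6.65 ± 1.41 TPM and Cxcr3, a receptor of interferon-inducible CXC chemokines, at 1.20 ± 0.114 TPM (SD, n = 3 each), with Ccr3 given above. The neutrophil receptor Cxcr2 had 8, 5 and 3 counts, and Ccr4 and Ccr8, found on T cells, had none. In all, 8 of the 31 had no counts, and the median level of the 31 was 0.0233 TPM, beside 1.17 TPM for the 9 members.

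**Figure D4:**
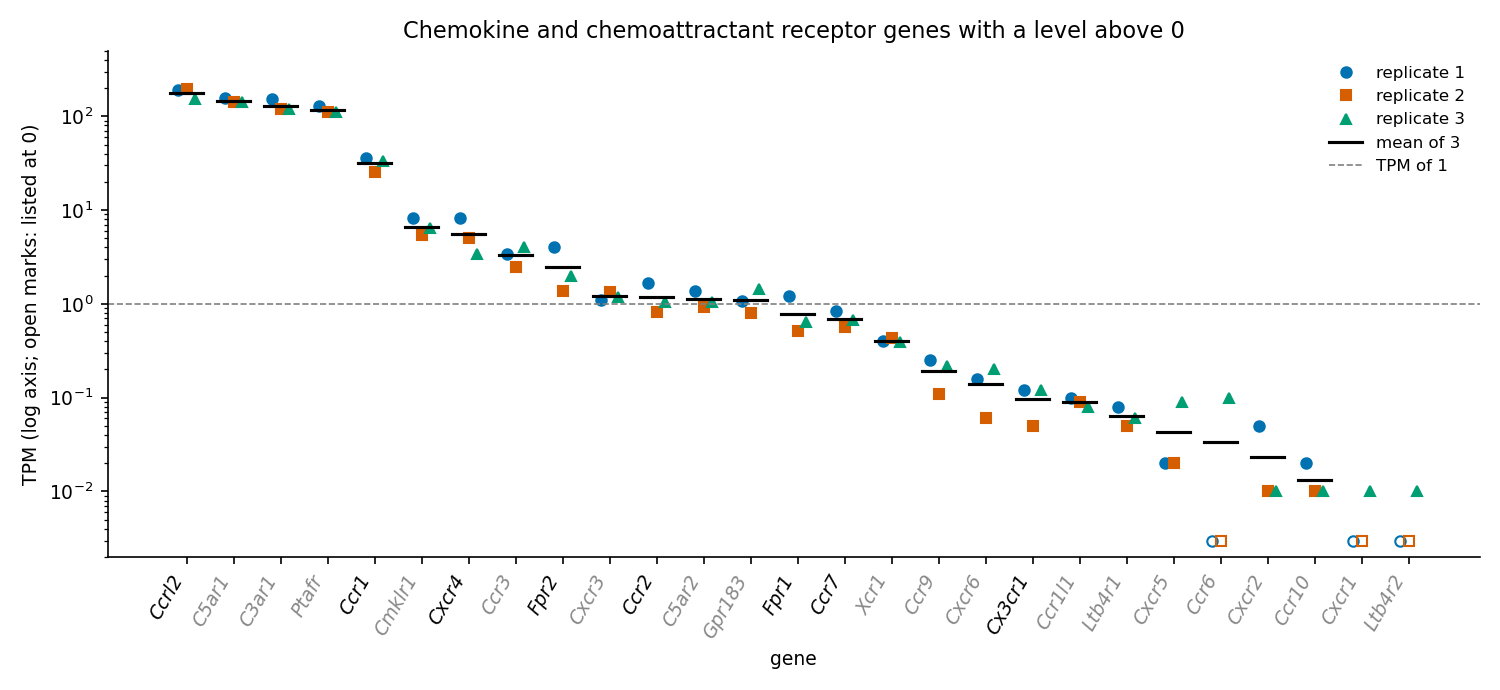
TPM on a log axis for the chemokine and chemoattractant receptor genes with a mean above 0, ordered by mean, with members in black and other receptors in grey letters. Marks are the 3 libraries and open marks values listed at 0. Ccrl2, C5ar1, C3ar1 and Ptafr all lie above 100 TPM, with Ccr1 next.

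RNA of most listed signalling genes downstream of these receptors was detected, while protein and signalling were not measured. Of 32 genes for G protein subunits, effectors, kinases, arrestins and RGS proteins, 28 were detected, and the median of the 32 was 21.1 TPM. Detection held for 37.6% of all nuclear-encoded protein-coding genes. At the top stood Rgs1, which speeds the switch-off of inhibitory G proteins, at 178 ± 49.0 TPM, and the small GTPase gene Cdc42 at 175 ± 17.4 TPM (SD, n = 3 each). The inhibitory G protein gene Gnai2 was at 119 ± 1.89 TPM, Rac1 at 92.8 ± 9.80, the PI3-kinase gamma regulator Pik3r5 at 88.4 ± 2.50 and Rhoa at 85.8 ± 7.44 (SD, n = 3 each), where the counts of Rac1 and Rhoa were not whole. The lowest were Rgs14 at 0.647 ± 0.155 TPM and Rgs16 at 0.120 ± 0.0346 TPM (SD, n = 3 each). Of the 17 ligand genes 11 were detected, and the median of all 17 was 66.9 TPM.

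Most members varied between libraries by more than counting error. The rounded expected counts were tested for dispersion against Poisson error by chi-square, with Benjamini-Hochberg adjustment over all genes tested, and 7 of the 8 members with at least 10 counts on average passed an adjusted p of 0.05. The same test called 62.1% of 14037 genes, so a call is common at this depth. Ccrl2 had the largest chi-square of the members, 2193, on the highest counts, and its highest library was 1.28 times its lowest. Ccr1 passed with an adjusted p of 8.65e-52, Cxcr4 with 1.83e-52, Fpr2 with 1.10e-18 and Ccr2 with 5.27e-14 in this dispersion test. Fpr1 passed with an adjusted p of 1.81e-05 and Cx3cr1 with 0.000391, while Ccr7 did not pass, at 0.253. Ackr3 was too low to be tested.

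Single libraries decided 3 of these calls. Without replicate 2 the adjusted p of the dispersion test was 0.602 for Ccr1 and 0.914 for Cx3cr1, and without replicate 1 it was 0.460 for Fpr1. Over all alternatives these values ran from 1.70e-77 to 0.602 for Ccr1, from 0.000169 to 0.914 for Cx3cr1 and from 2.58e-06 to 0.460 for Fpr1. The median biological coefficient of variation from edgeR, an estimate of the spread beyond counting error, was 0.262 over the 8 members and 0.151 over all genes tested. It ranged from 0.110 for Ccr1 and 0.143 for Ccrl2 to 0.287 for Cxcr4, 0.338 for Fpr2 and 0.431 for Cx3cr1. Ccr7, which did not pass the dispersion test, still had 0.238, on far fewer counts than Ccrl2. Differences in this estimate between genes or lists of unlike counts are therefore no evidence of unlike spread. For the lists of other receptors, ligands and signalling genes the medians were 0.186, 0.111 and 0.106. They were 0.118 for macrophage and 0.183 for monocyte genes, and higher than for the members at 0.325 for neutrophil and 0.315 for dendritic cell genes.

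The median log2 ratio of library to gene mean over the 8 members above 0 TPM was 0.40, -0.42 and -0.20 in replicates 1, 2 and 3. Over the 9100 genes whose mean reached 1 TPM it was 0.10, -0.11 and 0.00. Replicate 1 was the highest library for 6 members and replicate 2 the lowest for 6, and the same held for 62.7% and 63.0% of those genes. Ccrl2 differed in having replicate 2 as its highest library. The lowest library depended on the quantification: in the kallisto-layout tables Ccr1 was at 14.4, 10.5 and 9.45 TPM and Fpr1 at 0.507, 0.219 and 0.187 TPM in replicates 1 to 3. There replicate 3, not replicate 2, was the lowest for Ccr1, Ccr2, Ccr7 and Fpr1, while replicate 1 stayed the highest for each. Every listed macrophage gene was also lowest there in replicate 3, such as Lyz2 at 1766, 1605 and 1043 TPM in replicates 1 to 3. The low replicate 3 is thus not particular to the receptors, and its share over all genes was not computed.

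By the gene tables, Ccr1, Fpr2, Ccr2, Fpr1 and Ccr7, 5 of the 9 members, were highest in replicate 1 and lowest in replicate 2, with replicate 3 between. The same order held for 3 of 5 monocyte genes, 5 of 8 macrophage genes, 1 of 10 neutrophil genes and 45.1% of the 9100 genes, so it was common. Of the 5 classical monocyte genes 4 were detected, and the summed level was 28.49, 17.76 and 21.01 TPM in replicates 1, 2 and 3. F13a1, at 15.44, 8.50 and 10.73 TPM, Chil3 and Ly6c2 had that order. Vcan, at 1.70, 0.94 and 2.12 TPM, was highest in replicate 3, and Plac8, at 4.22, 3.62 and 2.34 TPM, was lowest in replicate 3. Of the 10 neutrophil genes 3 were detected, S100a9 at 13.5 ± 1.72, S100a8 at 8.32 ± 1.26 and Mmp8 at 3.76 ± 0.564 TPM (SD, n = 3 each). The summed level of the 10 was 27.1, 22.8 and 30.6 TPM, highest in replicate 3. Among the rest, Ltf reached at most 0.94 TPM, Mpo and Elane at most 0.30 TPM, and Ly6g had no counts. The macrophage genes summed to 5854, 5444 and 5334 TPM, of which Lyz2 held 4392, 3945 and 3781 TPM, and their median log2 ratio to the gene mean was 0.15, -0.22 and 0.04. The part of monocytes in the receptor levels was not tested.

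**Figure D5:**
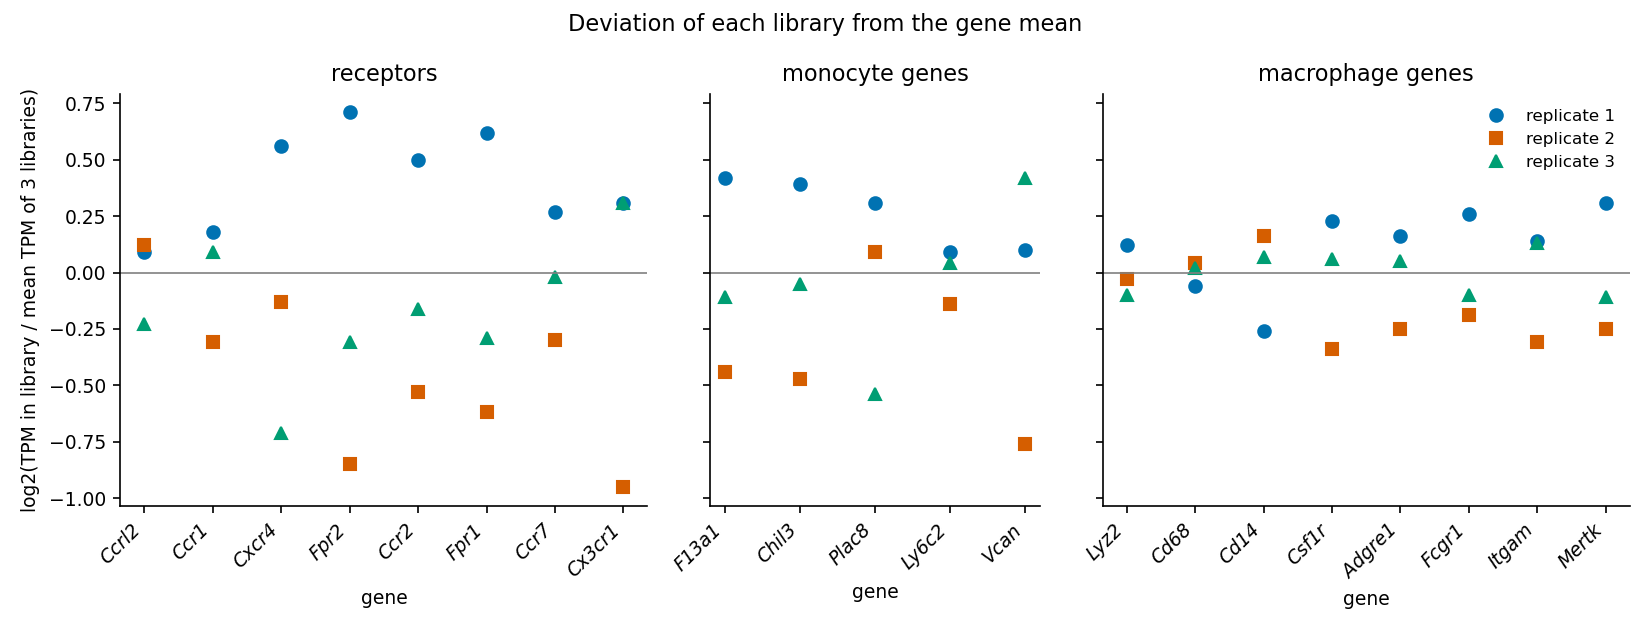
Log2 of TPM in a library over the mean of the 3 libraries, for the 8 receptors above 0 TPM, 5 monocyte genes and 8 macrophage genes, each ordered by mean level, with 1 mark per library. Replicate 1 is on top and replicate 2 at the bottom for 5 receptors (Ccr1, Fpr2, Ccr2, Fpr1 and Ccr7), 3 of 5 monocyte genes (not Vcan or Plac8) and 5 of 8 macrophage genes (not Lyz2, Cd68 or Cd14).

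Genes whose library values were most like a member were found by distance of log2 ratios to the gene mean over the 3 libraries, among genes whose mean reached 10 TPM. For Ccrl2 these were Osbpl9 at 20.00, 20.34 and 16.24 TPM, Rpl5 at 19.28, 19.15 and 15.19 TPM and Rab9 at 23.94, 24.92 and 19.59 TPM, at distances of 0.022 to 0.030. Of 3327 genes, 269 lay within a distance of 0.2 of Ccrl2 and 35 within 0.1, so its pattern is not particular to Ccrl2. For Fpr2, the member with the largest SD of log2(TPM + 1), they were the small nuclear RNA gene Gm24497, the protein-coding gene Rasgef1b at 135.5, 51.8 and 71.6 TPM and the small nucleolar RNA gene Rnu3a, at distances of 0.128 to 0.149. Only 4 of 3328 genes lay within 0.2 of Fpr2. With 3 libraries such likeness is a description of these samples.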

How the data were processed

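Expected counts, estimated per gene and per transcript and not necessarily whole, and TPM and FPKM, scaled by length and library, were deposited by the authors in the RSEM layout, per the file headers. A transcript table in the kallisto layout, with estimated counts and TPM, was deposited beside them. A text listing the authors deposited gives mm10 as the genome and GENCODE M21 as its annotation. Which aligner, versions and strandedness were used is not given in the sources used here, so a gene cannot be told apart from one that overlaps it or lies antisense. The percent of a gene's TPM per transcript is a deposited column and was recomputed here. Bounds of the credibility interval of TPM, a deposited signal column, enter no result. No score or test of the authors was used.

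Per the labels, libraries were made from 1 µg of RNA with sizes of 250 to 400 bp. Levels are TPM per library with mean and SD. Detection required 1 TPM in each of the 3 libraries. Expected counts were rounded to whole numbers for the Poisson dispersion test, with TMM factors from edgeR 4.0.16 in R 4.3.3 and genes with at least 10 counts on average, adjusted by Benjamini-Hochberg over all of them at 0.05. The biological coefficient of variation came from an intercept-only fit. The test was checked on simulated Poisson counts for the 14037 genes, some of which were changed in 1 library. It made 9 false calls among the unchanged genes. The simulated counts follow the test's own assumption, so the check covers the calculation only. DESeq2 1.42.0 size factors were an alternative. Other values came from pandas 2.3.3 and numpy 2.4.6 under Python 3.11.15.

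The members, gene lists and alternatives were chosen with earlier results of these data known. All 9 members, each detected other receptor of the list, each ligand and the 6 highest and 2 lowest signalling genes are named by rule, with the 3 genes most like the highest and the most variable member. The other receptors, marker genes and ratios in the text were chosen after their values were seen. Of the receptor and marker lists, 2 genes are not reported here and enter no count.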

Additional observations from a re-analysis of the deposited data

How the results depend on the processing

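No paired analysis was possible because the series has 1 group. The 4 detected members became 7 at TPM of at least 0.5, 2 at TPM of at least 5, 7 at FPKM of at least 1 and 7 with TPM rescaled to nuclear-encoded protein-coding genes, and were 3 in the kallisto-layout tables. TPM in those tables was also lower for genes outside the family, such as Gnai2 at a mean of 44.3 beside 119 TPM. The same threshold is thus stricter there. With 1 library left out the count ran from 4 to 5. For the 6 other receptors the count was 8 at TPM of at least 0.5, 4 at TPM of at least 5 and 8 at FPKM of at least 1. It was 9 with TPM rescaled to nuclear-encoded protein-coding genes, 5 in the kallisto-layout tables and 6 to 8 with 1 library left out. The median level of the members, 1.17 TPM, was 0.482 TPM in the kallisto-layout tables, 2.21 as FPKM and 5.23 TPM rescaled to nuclear-encoded protein-coding genes, and 0.930 to 1.36 TPM with 1 library left out. The order of the 9 levels was the same under 5 of these 6 alternatives, and without replicate 1 Ccr7 and Fpr1 changed places. The 8716 genes varying beyond counting error were 5205 without replicate 2, the deepest library, and at most 6899 with another library left out. Of the members 7 were called, and 5 to 7 with 1 library left out. Detection near TPM of 1, as for Ccr2, rests on the threshold, and TPM keeps no depth.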
